A study of Homo sapiens with 4 samples.

Results

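The genes of the β-catenin switch of canonical Wnt signalling were examined at the level of their mRNA in DU145 cells, an established line from a human prostate carcinoma metastasis. The members were taken by name: CTNNB1, APC, AXIN1, AXIN2, GSK3A, GSK3B, CSNK1A1, LEF1, TCF7 and TCF7L2. Every probe set, the set of short probes that together read a transcript, whose platform annotation names exactly one of them was included, which gave 40 probe sets of 9 genes among 40914 probe sets of 19774 genes. No probe set in the annotation used here names TCF7 alone, so it has no value. The study compared 2 arrays of DU145 cells infected with a lentivirus carrying an shRNA against GFP (shGFP, the control) with 2 arrays of DU145 cells infected with an shRNA against DCUN1D1 (shDCUN1D1), a protein that promotes the attachment of NEDD8 to cullins. The labels call them biological duplicates, and give 16 h of growth in the same medium for all 4 cultures, whereas the methods describe a longer incubation after infection, a conflict the sources do not settle. The methods describe more than one shRNA against DCUN1D1 for the array experiment, and which one each knockdown array carried is not recorded in the labels. DMSO is mentioned for all 4 cultures without a stated use.

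β-catenin, the product of CTNNB1, holds cadherins to the cytoskeleton and is also a transcriptional co-activator. Without a Wnt signal it is captured by a complex that the scaffolds APC and axin build, phosphorylated first by casein kinase 1α (CSNK1A1) and then by GSK3 (GSK3A and GSK3B), ubiquitinated by a cullin-RING ligase with the receptor β-TrCP, and degraded by the proteasome. When the complex is blocked, β-catenin accumulates and binds the DNA-binding factors of the TCF family (LEF1, TCF7, TCF7L2), and AXIN2, LEF1 and TCF7 are themselves textbook targets of that step. The study examined β-catenin, GSK-3β and Lef1 as proteins and reported less total β-catenin in the knockdown cells. Its pathway analysis of the array data also listed Wnt/β-catenin signalling as deregulated, and its upstream analysis predicted β-catenin as a regulator. Those analyses were not repeated here. The arrays are read here for a separate question, namely whether the mRNAs of these proteins differed between the control and knockdown cells of the arrays. They carry no information on phosphorylation or protein stability. The methods describe the knockdown line with a single shRNA clone and the array experiment with more than one. The cells of the arrays and of the protein work are therefore not shown to be the same.

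Most probe sets on these arrays gave little signal. Only 1798 of the 40914 probe sets (4.39%) lay above the array's own nonspecific control with 20 G or C among its bases, a probe set that matches no human transcript, in all 4 arrays. This control read 2.97 and 3.30 log2 units under shGFP (replicates 1 and 2) and 2.48 and 2.51 under shDCUN1D1. Of 23 nonspecific controls of different base composition, 20 were lower in both knockdown arrays than in both control arrays. Knockdown replicate 1 stood apart, with 854 genes more than 2 log2 units above each of the other arrays, against at most 5 in any other array, and control replicate 2 had 34 genes as far below the others, against 0 elsewhere. In knockdown replicate 1 the 3′ probe set of GAPDH read 10.8 against 4.68 to 5.09 elsewhere, and that of ACTB 8.30 against 3.95 to 4.35. The bioB spike, RNA added at hybridization, read 7.53 and 10.2 under shGFP and 5.96 and 6.54 under shDCUN1D1, so it moved with the group, and its part in the results was not tested. Markers of the labelled cell type were dim as well. Of 7 epithelial markers, 5 lay above the nonspecific control in no array and 1, KRT8, in all 4. KRT8 read 3.25 and 3.73 under shGFP and 3.70 and 3.33 under shDCUN1D1. The brightest probe set of KRT18, a keratin of simple epithelia, read 1.68 and 1.63 under shGFP and 7.62 and 1.69 under shDCUN1D1. None of the 7 leukocyte markers measured lay above the nonspecific control in any array, nor did 4 of 6 fibroblast and 3 of 5 luminal prostate markers, so the arrays identify the cells only weakly. The targeted gene could not be read clearly on these arrays. The paper reports a strong fall of DCUN1D1 mRNA by real-time PCR and of its protein by Western blot in infected DU145 cells. The brightest of 6 DCUN1D1 probe sets read 2.55 and 1.99 under shGFP and 1.60 and 1.45 under shDCUN1D1, a log2 fold change of −0.75 ± 0.26 (SE, limma adjusted p = 0.62), and none of the 6 lay above the nonspecific control in any array. Of the 6, 4 were negative and 2 positive (0.12 and 0.07), and averaged they gave −0.22. Without control replicate 2 the value was −1.02, and without control replicate 1 it was −0.47.

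CTNNB1 was among the brightest genes of the arrays, and its signal was nearly the same in both groups as deposited. Its brightest probe set, 201533_PM_at, read 10.26 and 10.43 under shGFP and 10.24 and 10.41 under shDCUN1D1. The groups overlapped fully, with the replicates of a group farther apart than the group means. The log2 fold change was −0.02 ± 0.19 (SE, limma adjusted p = 0.98), with a 90% interval of −0.40 to 0.37, that is, a change in signal of −24.3% to 29.1%. The interval is the precision that 2 arrays a group allow under this fit, and it does not show that the mRNA was equal. It depends on the variance model, with −43.8% to 73.9% under the robust model and −21.2% to 24.0% with no variance trend. In RNA of whole cultures, fewer cells with a transcript and less of it per cell cannot be told apart. The other CTNNB1 probe sets, 1554411_PM_at and 223679_PM_at, read between 1.27 and 1.81 in every array, at background level, with log2 fold changes of 0.02 and 0.03.

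How flat CTNNB1 appears depends on the scale of the arrays. The range of CTNNB1 over the 4 arrays was 0.186 log2 units, while the median range of the 65 genes with a mean log2 signal of 9 or more was 0.751, and 1 of these genes had a smaller range than CTNNB1. Of these bright genes 44 had a positive and 21 a negative log2 fold change, against 9584 and 10190 of all genes. Their median was 0.23, and CTNNB1 lay 0.25 log2 units below it. The bright genes were chosen by their mean over all 4 arrays, so a gene high in only 1 group could enter. The part of that choice in their lean and in the distance of CTNNB1 was not tested. The percentile of CTNNB1 among all genes was 99.87 and 99.91 under shGFP and 99.78 and 99.86 under shDCUN1D1. With quantile normalization its log2 fold change was −0.56 ± 0.30 (SE, limma adjusted p = 0.61), with a 90% interval of −1.14 to 0.01. With cyclic loess normalization it was −0.40 ± 0.24 (SE, limma adjusted p = 0.61), with an interval of −0.89 to 0.09. Leaving out each array in turn gave −0.10 to 0.07. No setting placed CTNNB1 past a threshold.

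**Figure D1:**
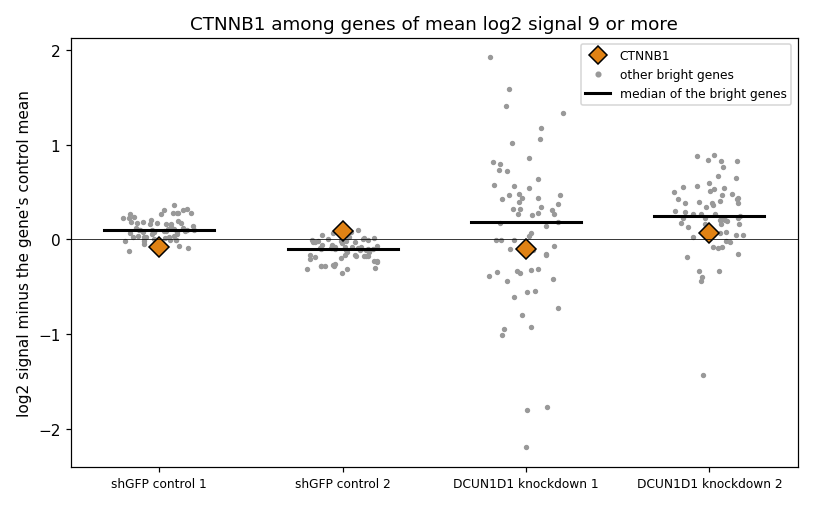
Log2 signal of each of the 65 genes with a mean log2 signal of 9 or more in each array, minus that gene's mean over the 2 control arrays (vertical axis), with CTNNB1 as an orange diamond, the other 64 genes as grey points and the median as a black bar. The 2 control arrays mirror each other by construction. CTNNB1 stays within about 0.10 log2 units of its control mean in each array, while the medians of the bright genes lie at 0.187 and 0.245 in the knockdown arrays and single genes scatter widely in knockdown replicate 1.

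Genes whose course over the 4 arrays was most like that of CTNNB1 were sought among the 1510 genes above the nonspecific control in all 4 arrays, by the Euclidean distance of the mean-centred log2 signals. The nearest were TGM6, PHLDA3, MLLT6, PPP4R2 and PRP4K, at distances of 0.074 to 0.094. All 5 have log2 fold changes between −0.06 and 0.01, so the likeness is that of genes that hardly vary. With 4 arrays it describes these arrays only.

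The kinases of the destruction complex gave the clearest signal after CTNNB1, and their probe sets leaned in different directions. CSNK1A1 encodes the priming kinase, casein kinase 1α. Its brightest probe set, 213860_PM_x_at, read 7.98 and 7.98 under shGFP and 8.43 and 8.29 under shDCUN1D1, and 213086_PM_s_at read 7.87 and 7.78 against 8.18 and 8.37. On both, each knockdown array lay above each control array, with log2 fold changes of 0.38 ± 0.40 (SE) and 0.45 ± 0.42 (SE), differences no larger than about 1 standard error. A further probe set, 208865_PM_at, read 4.78 and 3.80 under shGFP and 5.77 and 5.69 under shDCUN1D1, a log2 fold change of 1.44 ± 0.65 (SE, limma adjusted p = 0.62). The fold bound, the level and cut-off of the study's methods, is exceeded when the lower end of the 90% interval of the fold change is above 1.2. As deposited 208865_PM_at did not exceed it, but it did with the filter on the median signal, with no variance trend and with the robust variance model. The last that lay above the nonspecific control, 206562_PM_s_at, read 6.23 and 3.88 against 6.15 and 6.06, so its log2 fold change of 1.05 came from control replicate 2 and was −0.13 without that array. The remaining 6 CSNK1A1 probe sets read 1.07 to 2.21, at background level. Under quantile normalization both bright probe sets turned negative, at −0.26 each, and 208865_PM_at moved from 1.44 to 0.71. CSNK1A1 has a close intronless copy in the genome, CSNK1A1L, and a suffix of x in a probe set's name marks probes that may also bind other transcripts.

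GSK3A and GSK3B, the paralogous kinases that phosphorylate β-catenin after priming, differed in sign on their brightest probe sets. GSK3A on 202210_PM_x_at read 4.86 and 5.13 under shGFP and 4.27 and 4.01 under shDCUN1D1, each knockdown array below each control array. This is a log2 fold change of −0.86 ± 0.55 (SE, limma adjusted p = 0.63). Its other probe set, 632_PM_at, read 3.52 and 2.63 against 3.22 and 3.88, with overlapping groups and a log2 fold change of 0.48 ± 0.52 (SE), so the 2 GSK3A probe sets did not share a direction. Averaged, they gave −0.19. Nonspecific controls with 23 and 24 G or C, at 4.36 to 4.62 under shGFP, differed by −0.63 and −0.44 between the groups. The part of background in the GSK3A difference was not tested.

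GSK3B on 226191_PM_at read 4.96 and 4.43 under shGFP and 5.19 and 5.56 under shDCUN1D1, each knockdown array above each control array. The log2 fold change was 0.68 ± 0.61 (SE, limma adjusted p = 0.69), and −0.06 under quantile normalization. A second GSK3B probe set, 209945_PM_s_at, read 2.63 and 1.44 under shGFP and 3.27 and 3.64 under shDCUN1D1. It had a log2 fold change of 1.42 ± 0.50 (SE, limma adjusted p = 0.62) and was one of 2 member probe sets past the fold bound. Both control values lay under the nonspecific control and both knockdown values above it. With the nonspecific control as the floor in the control arrays, the signal was at least 1.25-fold higher after knockdown. Without control replicate 2, which had the lowest value, the log2 fold change was 0.82 and not past the bound, and it was not past the bound without knockdown replicate 2 either, at 1.24. A further probe set, 226183_PM_at, with the same order of groups, lay at background with 1.33 and 1.07 against 1.43 and 2.03, and the other 2 read 1.36 to 1.86.

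For 2 arrays against 2 the smallest p of an exact permutation test (two-sided) is 0.333, so no such test is given for single probe sets.

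**Figure D2:**
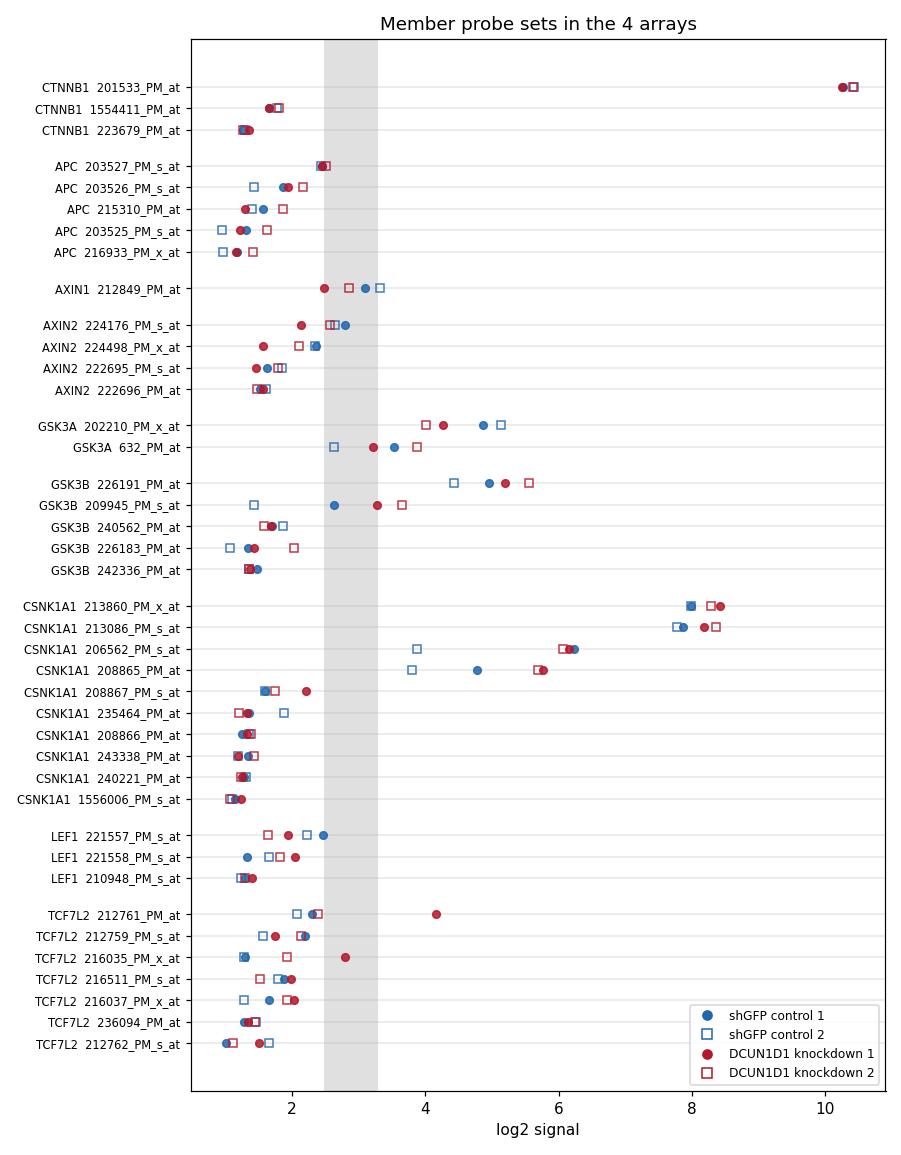
Log2 signal (horizontal axis) of all 40 member probe sets, one row per probe set grouped by gene, in the 4 arrays, with shGFP arrays blue, shDCUN1D1 arrays red, filled circles for replicate 1 and open squares for replicate 2. The grey band spans the values of the nonspecific control, 2.48 to 3.30. CTNNB1 on 201533_PM_at stands above 10 with all arrays together, CSNK1A1 has 4 rows to the right of the band, and the rows of APC, LEF1 and most of TCF7L2 lie left of it or at its left edge.

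The scaffolds of the complex were dim. APC, the large scaffold that is lost in most colorectal cancers, had 5 probe sets, none above the nonspecific control in any array. The brightest, 203527_PM_s_at, read 2.45 and 2.43 under shGFP and 2.44 and 2.50 under shDCUN1D1, a log2 fold change of 0.03 ± 0.26 (SE, limma adjusted p = 0.98). All 5 were positive in log2 fold change, up to 0.41 on 203526_PM_s_at, which read 1.86 and 1.43 against 1.94 and 2.16. At this level a signal cannot be told from background.

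AXIN1, the limiting scaffold, had 1 probe set, 212849_PM_at. It read 3.09 and 3.32 under shGFP and 2.48 and 2.85 under shDCUN1D1, each knockdown array below each control array, with a log2 fold change of −0.53 ± 0.36 (SE, limma adjusted p = 0.63). These values sit just above those of the nonspecific control in the same arrays, which differed by −0.64 between the groups. The AXIN1 difference was therefore of the size of the difference in background, and the part of background in it was not tested.

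AXIN2, the second axin and a feedback target of β-catenin and TCF, had 4 probe sets and all 4 had negative log2 fold changes, from −0.51 to −0.04. The brightest, 224176_PM_s_at, read 2.79 and 2.65 under shGFP and 2.14 and 2.56 under shDCUN1D1, a log2 fold change of −0.37 ± 0.30 (SE, limma adjusted p = 0.67). The next, 224498_PM_x_at, read 2.37 and 2.34 against 1.57 and 2.11, a log2 fold change of −0.51 ± 0.27 (SE, limma adjusted p = 0.62). On these 2 each control value exceeded each knockdown value, with the lowest value in knockdown replicate 1. Without that array the log2 fold changes were −0.16 and −0.24. AXIN2 lay above the nonspecific control in 1 array at most, and nonspecific probe sets in the same range of signal, those with 17 and 18 G or C, differed by −0.41 and −0.60.

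Of the DNA-binding partners, LEF1 and TCF7L2 were measured, both mostly at background level. LEF1, a factor of lymphocytes and of Wnt-stimulated epithelia, lay above the nonspecific control in no array. Its brightest probe set, 221557_PM_s_at, read 2.47 and 2.23 under shGFP and 1.94 and 1.64 under shDCUN1D1, a log2 fold change of −0.56 ± 0.24 (SE, limma adjusted p = 0.62). A second, 221558_PM_s_at, went the other way without overlap of the groups, with 1.32 and 1.66 against 2.04 and 1.81 and a log2 fold change of 0.44 ± 0.21 (SE, limma adjusted p = 0.62). Averaged, the 3 LEF1 probe sets gave −0.01, and a direction for LEF1 cannot be given.

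TCF7L2, the TCF factor of most epithelia, had 7 probe sets. Its brightest, 212761_PM_at, read 2.30 and 2.08 under shGFP and 4.17 and 2.39 under shDCUN1D1. The log2 fold change of 1.09 ± 0.64 (SE, limma adjusted p = 0.62) came mainly from knockdown replicate 1 and was 0.20 without it. The second member probe set past the fold bound was 216035_PM_x_at of TCF7L2, with 1.30 and 1.28 under shGFP and 2.80 and 1.92 under shDCUN1D1 and a log2 fold change of 1.07 ± 0.33 (SE, limma adjusted p = 0.62). It lay above the nonspecific control in knockdown replicate 1 only, so no fold can be given against a measured level. Without knockdown replicate 1 its log2 fold change was 0.63 and still past the bound, and without either control array, at 1.08 and 1.06, it was not. The other 5 TCF7L2 probe sets read 1.02 to 2.19 with log2 fold changes of −0.08 to 0.50.

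Proteins of the TCF family bind DNA words with the core CTTTG. To place the members among possible targets of their own factors, the windows from 250 bases before to 50 bases after annotated starts in RefSeq (GRCh38.p14) were searched on both strands for the core CTTTG followed by AT, TT, AA or TA. As the words share the core, only 1 can match at a given start on a strand. Of 14 windows for 9 of the 10 members, 2 held a word (14.3%), against 13.8% of all 35116 windows and 15.4% of 52 windows of the target genes listed here, so the members' windows did not stand out. AXIN2 is not in the table of windows. The 2 windows with a word belong to alternative starts of TCF factors, and their 250 bases before the start are shown because they are the only member windows with a match. The word is in capitals, and for TCF7 it lies on the opposite strand, so its reverse complement is shown.
TCF7L2, chr10:113126383-113126632, + strand: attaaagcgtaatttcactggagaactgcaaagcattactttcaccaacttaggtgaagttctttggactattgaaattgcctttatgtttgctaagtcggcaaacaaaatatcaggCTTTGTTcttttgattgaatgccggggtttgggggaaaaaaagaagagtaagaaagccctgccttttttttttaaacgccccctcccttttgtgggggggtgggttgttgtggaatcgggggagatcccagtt
TCF7, chr5:134123368-134123617, + strand: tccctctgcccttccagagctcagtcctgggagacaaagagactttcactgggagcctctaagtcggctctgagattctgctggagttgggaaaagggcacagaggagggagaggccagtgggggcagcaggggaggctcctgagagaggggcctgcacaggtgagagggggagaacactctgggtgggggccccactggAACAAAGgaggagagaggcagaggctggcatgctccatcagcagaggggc
A match is a description of the letters and shows no binding.

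Over all 40 member probe sets, 2 exceeded the fold bound upward and 0 downward. The background over all probe sets was 1.18% higher (481) and 2.38% lower (974), and the members' 2 of 40 are too few to set apart from it. Of all calls past the bound 33.1% were higher, or 43.6% with cyclic loess normalization. Single arrays moved this share further. It was 57.8% without knockdown replicate 1, 82.2% without knockdown replicate 2, 21.4% without control replicate 1 and 8.55% without control replicate 2, so leaving out either knockdown array turned the prevailing direction over all probe sets. By limma's adjusted p, 0 of the 40 and 0 of all 40914 passed, with a smallest adjusted p of 0.62 in both. At an unadjusted p under 0.05, 2 member probe sets were higher and 0 lower, against 2.3% higher and 5.25% lower of all probe sets. With an ordinary t-test, 0 of the 40 and 1 of all 40914 passed after Benjamini–Hochberg adjustment. The methods name Student's t-test in general, but the fold bound for the array calls. In 12 member probe sets both knockdown arrays lay above both control arrays, and in 8 both lay below, against 17.9% and 25% of all probe sets. The median log2 fold change was 0.05 for the member probe sets and −0.01 for all. Of the 40, 27 lay above the nonspecific control in no array and 8 lay above it in all 4: 1 of CTNNB1, 4 of CSNK1A1 and 1 each of AXIN1, GSK3A and GSK3B. Of these 8, none was past the bound, against 6.95% of the 1798 such probe sets on the arrays.

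**Figure D3:**
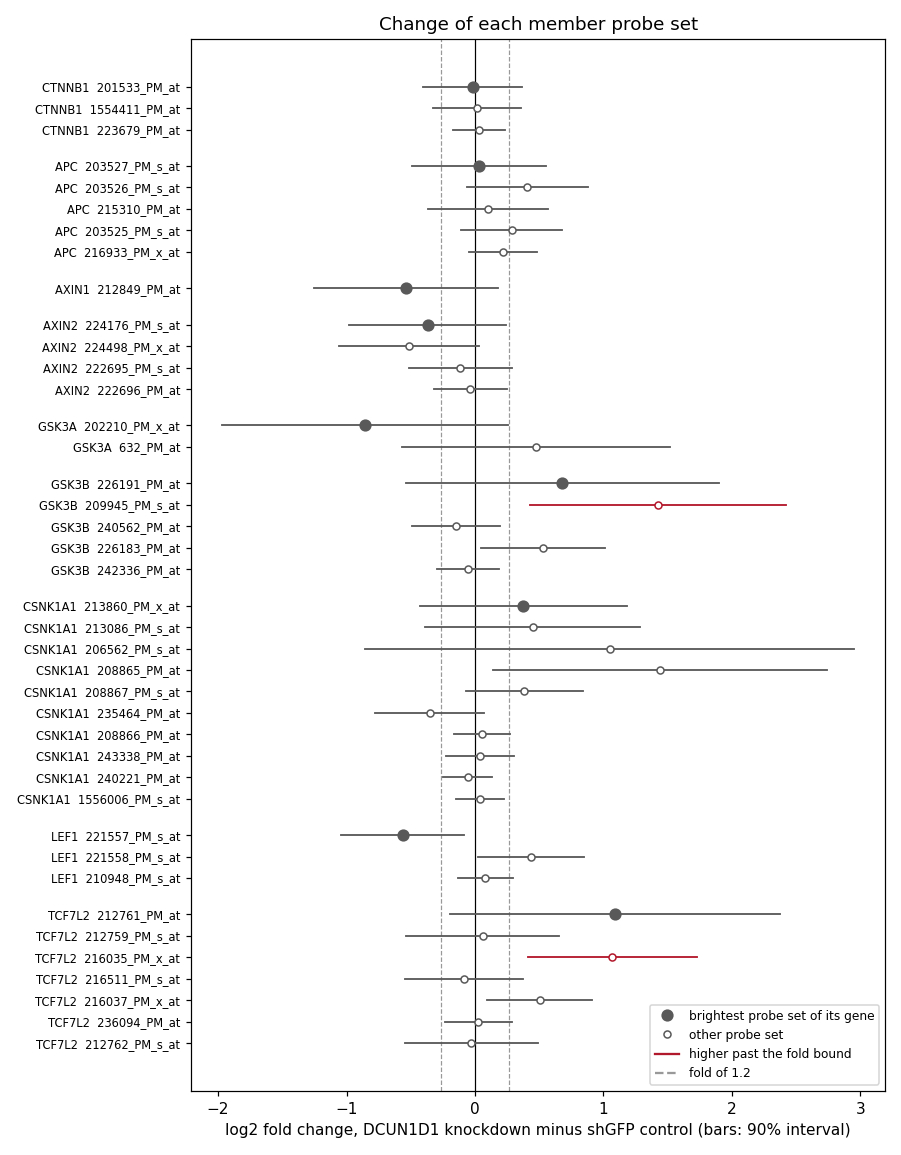
Log2 fold change, DCUN1D1 knockdown minus shGFP control, of the 40 member probe sets with its 90% interval from limma (bars), large filled points for the brightest probe set of each gene and small open points for the others, red where past the fold bound and dashed lines at a fold of 1.2. The 2 red rows are 209945_PM_s_at of GSK3B at 1.42 and 216035_PM_x_at of TCF7L2 at 1.07, and CTNNB1 on 201533_PM_at sits at −0.02.

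The brightest probe sets of the 9 genes kept their sign to different degrees. Leaving out any single array turned the sign of CTNNB1 and APC only, both with log2 fold changes near 0. Quantile normalization turned APC (−0.03), GSK3B (−0.06) and CSNK1A1 (−0.26) and moved GSK3A to −1.46, still not past the bound. Under every setting that kept the probe set, and as the mean over probe sets, GSK3A, AXIN1, AXIN2 and LEF1 had negative and TCF7L2 positive log2 fold changes. The filters, variance models, t-test, replicate block and bound of 1.5 leave a fold change as it is. Only the scalings, the left-out arrays and the mean over probe sets could turn a sign. The probe sets 632_PM_at of GSK3A and 221558_PM_s_at of LEF1 were as constantly positive, and the LEF1 mean was −0.01.

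**Figure D4:**
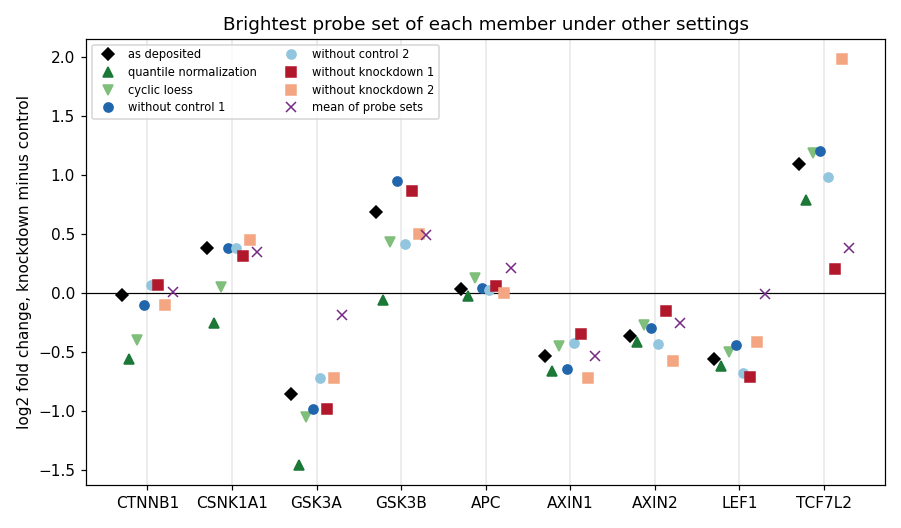
Log2 fold change, knockdown minus control (vertical axis), of the brightest probe set of each of the 9 members with the values as deposited (black diamonds), after 2 other normalizations, without each array in turn, and averaged over the probe sets of a gene (crosses). CTNNB1 moves from −0.02 to −0.56 with quantile normalization and to −0.40 with cyclic loess, and TCF7L2 from 1.09 to 0.20 without knockdown replicate 1 and 1.98 without knockdown replicate 2.

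Other genes of the pathway were read on their brightest probe sets, for which the background past the fold bound was 1.53% of genes higher and 3.39% lower. Of 31 regulators of the destruction complex measured, 0 were higher and 1 lower. PPP2CB, a catalytic subunit of the phosphatase PP2A, read 3.62 and 3.64 under shGFP and 2.33 and 1.87 under shDCUN1D1, a log2 fold change of −1.53 ± 0.35 (SE, limma adjusted p = 0.62). It stayed past the bound without any single array, but the other PPP2CB probe set went the opposite way. Averaged, the 2 probe sets gave 0.44, so the rise on the other was larger than this fall, and they give no common direction. Both knockdown values of the brightest probe set lay under the nonspecific control. With it as the floor, the signal was at least 2.19-fold lower after knockdown. The nonspecific control itself differed by −0.64 between the groups, and the part of background in this fold was not tested. The list had a median log2 fold change of −0.13, against −0.01 for all genes.

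Of 7 genes of the ligases that ubiquitinate β-catenin, 0 were past the bound in either direction, with a median of 0.01. BTRC and FBXW11, the β-TrCP receptors that recognise phosphorylated β-catenin, had log2 fold changes of −0.34 ± 0.22 (SE) and 0.19 ± 0.34 (SE). CUL1, the cullin of that ligase, read 4.92 and 4.50 under shGFP and 4.54 and 5.51 under shDCUN1D1, with overlapping groups. The log2 fold change was 0.32 ± 0.65 (SE, limma adjusted p = 0.88). The 2 CUL1 probe sets differed in sign, and averaged they gave −0.46. Of 27 nuclear cofactors, 0 were higher and 1 lower. TBL1X, a subunit of corepressor complexes, had a log2 fold change of −1.01 ± 0.35 (SE), with 2.50 and 3.29 against 1.90 and 1.87, and its 5 probe sets averaged −0.04. It was above the nonspecific control in no array and not past the bound without control replicate 2 (−0.61) or without either knockdown array.

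Of 46 target genes of β-catenin and TCF, 1 passed the bound upward and 2 downward, and the median was 0.01. ENC1, an actin-binding protein, read 3.19 and 3.01 under shGFP and 4.68 and 4.08 under shDCUN1D1, a log2 fold change of 1.28 ± 0.49 (SE, limma adjusted p = 0.62), with both of its probe sets positive. It was 0.93 and not past the bound under quantile normalization, and past it without knockdown replicate 2 but not without any other array. CD44, a hyaluronan receptor, had −1.09 ± 0.40 (SE) on its brightest probe set but 0.88 as the mean over its 13, of which 8 were positive. TBX3, a T-box factor, had −0.73 ± 0.21 (SE) and lay above the nonspecific control in no array. Without any one array CD44 was not past the bound, and TBX3 was past it only without knockdown replicate 1. MYC and CCND1, the best known targets, had log2 fold changes of 0.86 ± 0.82 (SE) and 0.47 ± 0.54 (SE). MYC read 2.28 and 1.58 under shGFP and 3.99 and 1.60 under shDCUN1D1, and CCND1 2.15 and 2.08 against 3.35 and 1.83, so both values came from knockdown replicate 1.

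Of 5 junction partners of β-catenin, 0 were past the bound. CDH1, which encodes E-cadherin, had a log2 fold change of −0.22 ± 0.26 (SE). JUP, γ-catenin, read 2.07 and 2.38 against 1.82 and 1.81. Both lay at background level. CTNNA1, α-catenin, read 2.15 and 1.88 against 3.95 and 2.04, a log2 fold change of 0.98 ± 0.66 (SE) that again rested on knockdown replicate 1. 

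**Figure D5:**
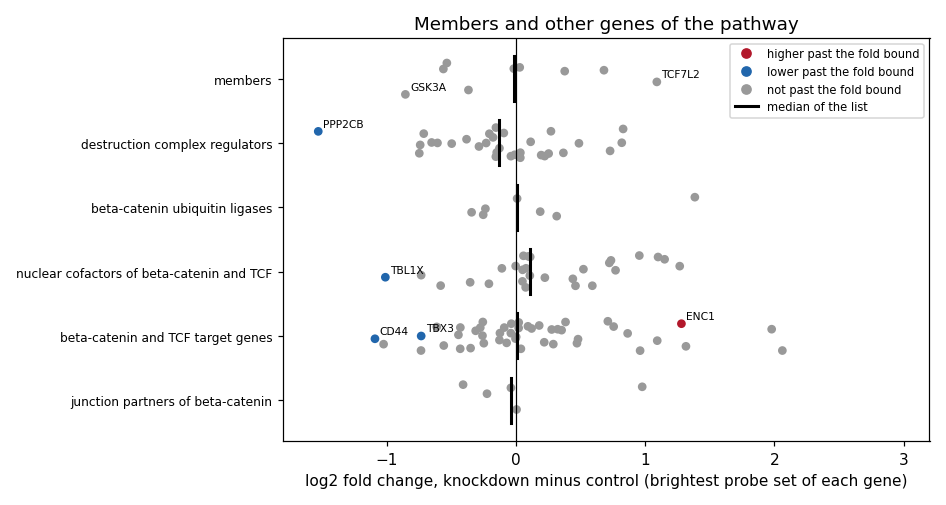
Log2 fold change, knockdown minus control (horizontal axis), of the brightest probe set of each gene, one row per list, with the list median as a black bar, and genes past the bound in red (higher) or blue (lower), all others in grey. The 9 members hold no coloured point, and the coloured points elsewhere are PPP2CB, TBL1X, CD44 and TBX3 lower and ENC1 higher.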

How the data were processed

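RNA of 4 DU145 cultures was labelled with biotin from 1 µg of total RNA and hybridized to Affymetrix arrays with 1 channel. The array named in the methods is another one than that whose probe sets the file holds, and the annotation used here is that of the probe sets. The authors deposited log2 signal values per probe set and array. Affymetrix Expression Console is named in the submitters' processing notes, whereas the methods describe dChip with a smoothing spline. Which software produced the values remains unknown here. The log2 scale was inferred from the range of the values. The platform annotation names 1 gene for 40914 probe sets, several for 864 and none for 12835, and 102 are controls. By gene ID, 40858 matched RefSeq, and 0 symbols changed. No further scaling was applied.

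All 40914 probe sets were fitted with limma 3.58.1 (R 4.3.3), letting the prior variance follow the signal, and p-values were adjusted by Benjamini–Hochberg (0.05). The fold bound is the lower end of the 90% interval above 1.2, from limma and not dChip. The fit was tested on simulated data. Its intervals held their level for unchanged probe sets and for changes placed about the mean signal, but were too narrow for simulated falls that lowered the mean while the noise stayed the same. Arrays have no read depth, so their number limits the precision. The members, the lists and the rule for named genes (all members, DCUN1D1, list genes past the bound, a few textbook genes, and the 5 genes nearest CTNNB1) were chosen with earlier results of these data known. Alternatives were 3 further scalings, filters, gene summaries, variance models, an ordinary t-test, a replicate block, a bound of 1.5 and leaving out each array. Cyclic loess was chosen after seeing the data. Western blots and proteomics were not analysed here.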

Additional observations from a re-analysis of the deposited data

How the results depend on the processing

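CTNNB1 changed sign as the mean of its probe sets (0.010), and its log2 fold change lay between −0.10 and 0.069 with each array left out. DCUN1D1 lay between −1.02 and −0.47 with each array left out, past the bound without control replicate 2, and was −0.22 as the mean of its probe sets. In place of 2 member probe sets higher past the bound there was 1 with quantile normalization and with the replicate block. There were 0 with the t-test and with a bound of 1.5, and 0 of 9 genes with the mean of probe sets. Other settings removed called probe sets before the fit and so did not retest them. The filter on the nonspecific control kept 10 of the 40, without 216035_PM_x_at of TCF7L2, and 1 was past the bound. With 1 probe set per gene there were 0, as neither of the 2 is the brightest of its gene. There were 3 with the filter on the median signal, with no variance trend and with the robust variance model, the added one each time being 208865_PM_at of CSNK1A1. Lower past the bound was 1, GSK3A, with no variance trend and with the t-test. With an array left out, the lower call was not GSK3A, which lay between −0.99 and −0.72. It was AXIN2 on 224498_PM_x_at, at −0.78 without knockdown replicate 2, a fit with a single knockdown array. By adjusted p the members had 0 to 2 with each array left out, the 2 being TCF7L2 probe sets without knockdown replicate 2, a fit in which 2602 probe sets passed. Over all probe sets, 481 higher became 311 with 1 probe set per gene, 172 with the mean of probe sets, 297 with the t-test, 105 with a bound of 1.5 and 47 to 4008 with each array left out. The 974 lower became 452 with the filter on the nonspecific control, 412 with the mean of probe sets, 310 with a bound of 1.5 and 503 to 1374 with each array left out. Paired as higher and lower, these were 373 and 1374 without control replicate 1, 47 and 503 without control replicate 2, 1203 and 878 without knockdown replicate 1, and 4008 and 870 without knockdown replicate 2. The filters and gene summaries have smaller totals than 40914, so their counts do not compare directly. The 452 lower with the filter on the nonspecific control are 9.65% of 4685, whereas the 974 are 2.38%. The 311 higher with 1 probe set per gene are 1.57% of 19774, against 1.18% for the 481. With the mean of probe sets, the 172 higher and 412 lower are 0.87% and 2.08%. With quantile normalization APC (−0.030), GSK3B (−0.059) and CSNK1A1 (−0.26) reversed, and APC lay between −0.0018 and 0.060 with each array left out. The deviations of same-numbered arrays correlated at −0.037 over probe sets, so the replicate numbers are not shown to pair the arrays. The replicate block cannot change a fold change in this balanced design (CTNNB1 −0.02), only its error, and over all probe sets 505 were higher and 669 lower. The cause of these changes was not tested. With 2 arrays a group and most probe sets at background, small differences are not detectable here.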
